A study of Mus musculus with 4 samples.

Results

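The suppressors of cytokine signalling (SOCS) are feedback inhibitors of cytokine receptors, and 4 of their genes were followed here in single thymic regulatory T cells (Treg): Cish, Socs1, Socs2 and Socs3. The 4 were chosen by name and not by a cut on measured values, but with earlier results of these data known. They were found by symbol among the 27998 genes of the count table. Each was described by its level and its share of positive cells in each library, and in cells with and without a transcript of Il2ra, the α chain of the interleukin-2 receptor.

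The study profiled thymic Treg of 3-week-old B6 mice that carry Rag2-Gfp and Foxp3-Thy1a, a pair of reporters that mark recently formed thymocytes and Foxp3-expressing cells. For every group the sort kept the CD4+CD8-Thy1.1+GFP+ fraction. The 4 groups were IL2 wt/wt, IL2 o/o, IL15 wt/wt and IL15 o/o, with 1 sample per group, and the labels do not say how many mice went into a sample. The cells of the count table carry barcode suffixes 1 to 4, here called libraries 1 to 4, and no source used here ties a suffix to a genotype, so no wild type was compared with a knockout.

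When interleukin-2 or interleukin-15 binds its receptor, JAK kinases phosphorylate STAT5, which enters the nucleus and switches on target genes. Cish and Socs2 are among the targets best known to respond to STAT5, and the CIS and SOCS2 proteins bind phosphorylated receptor tails. SOCS1 and SOCS3 also inhibit JAK kinases directly; Socs1 is known to respond to interferons, and Socs3 to STAT3. Thymic Treg depend on interleukin-2 and interleukin-15 for their maturation, and Il2ra itself is raised by STAT5.

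The table holds 8273 cells and 33232250 unique molecular identifiers (UMIs, each a captured transcript). Libraries 1 to 4 held 1609, 2452, 2037 and 2175 cells, with median depths of 3857, 3640, 2501 and 3019 UMIs per cell. Levels are given as UMIs per 1000000 UMIs of the same cells (CPM), with exact 95% Poisson intervals, and shares as the percent of cells with at least 1 UMI; both intervals cover counting error only, since cells are not replicates. Barcodes shared by 2 libraries numbered 27, and leaving out their 54 cells moved no ratio or library spread of a member outside its counting interval. Foxp3 was detected in all libraries at 12.6 to 14.3 CPM, and the Treg gene Ikzf2 at 914 to 1042 CPM. Other Treg genes were less even. The summed level of 11 Treg markers, Il2ra among them, was 3209 CPM in library 3 against 4165 to 4643 in libraries 1, 2 and 4. Ctla4 was at 82.9 against 143 to 180 CPM, and Gpr83 at 78.2 against 160 to 193. Il2 had 294, 340, 244 and 306 UMIs in libraries 1 to 4 and Il15 had 8, 5, 1 and 2; no source names the disrupted part of either gene, so these counts check no label.

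Library 3 stood apart from the others in several measures at the same time. Il2ra reached 31.1 CPM there against 181, 181 and 158 in libraries 1, 2 and 4. The summed level of 10 proliferation markers was 90.9 CPM there against 707 to 900 CPM. That of 10 interferon-response markers was 1045 against 743, 772 and 956 in libraries 1, 2 and 4. That of double-positive thymocyte markers was 153 against 77.8, 80.6 and 138. In the interferon and double-positive sums, library 4 lay closer to library 3 than to libraries 1 and 2. Haemoglobin and other erythroid genes summed to 1879 CPM in library 3 against 0 to 6.21, nearly all from 1 cell with 10431 haemoglobin UMIs. Nkg7, a gene of cytotoxic lymphocytes, was at 35.0 against 115 to 200 CPM, while the natural killer genes Ncr1, Klrb1c and Klrd1 had 0, 2 and 8 UMIs in all. The part of these differences in the values below was not tested, and the level of each member and its Il2ra comparison are given by library.

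Cish had the most UMIs of the 4 genes over all cells and was lowest in library 3. Cish (chromosome 9, 107296026 to 107302784, + strand, GRCm38) measured 107 CPM in library 1, 135 in library 2, 58.4 in library 3 and 109 in library 4. It was detected in 32.1%, 36.5%, 13.5% and 27.4% of their cells. Because deeper cells show more genes, cells were also thinned to 1811 UMIs each, which left 7447 cells and set 826 shallower ones aside; the shares then were 17.0%, 19.3%, 10.6% and 15.7%. Library 3 was the lowest on all 3 measures. The gene overlaps 2 annotated genes on the other strand, Gm17040 and Gm17041.

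Socs2 showed the widest spread of the 4 over the libraries and was nearly missing from library 3. Socs2 (chromosome 10, 95385362 to 95417180, - strand) had 255 UMIs in library 1, 494 in library 2, 5 in library 3 and 330 in library 4. These are levels of 32.3, 43.8, 0.87 and 39.5 CPM, with an interval of 0.28 to 2.04 in library 3. The thinned shares of positive cells were 4.95%, 6.30%, 0.25% and 5.54%, so the gap stayed when every cell had the same depth. The highest library was 45.6-fold above the lowest (19.7 to 106), the fifth widest ratio among 8071 genes with at least 200 UMIs. Among libraries 1, 2 and 4 the log2 difference of the highest from the lowest was 0.44.

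Socs1 was ordered differently, with library 1 lowest. Socs1 (chromosome 16, 10782240 to 10785536, - strand) measured 67.9 CPM in library 1, 99.2 in library 2, 83.1 in library 3 and 104 in library 4. The thinned shares were 11.6%, 17.0%, 13.2% and 15.4%. Libraries 2 and 4 did not differ beyond counting error, while the other pairs did. Library 3 held a level of Socs1 between those of libraries 1 and 2, although its Il2ra and Socs2 were the lowest.

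Socs3 was sparse in all libraries. Socs3 (chromosome 11, 117966079 to 117970047, - strand) had 65, 130, 64 and 114 UMIs in libraries 1 to 4, or 8.24, 11.5, 11.2 and 13.7 CPM. The thinned share of positive cells lay between 1.61% and 2.31%. Of the 6 pairs of libraries, only libraries 1 and 2 and libraries 1 and 4 differed beyond counting error.

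For scale, 27.6% of the 8071 genes had a highest library at least 1.5-fold above the lowest with an interval off no change, and the median gene spread 1.32-fold. All 4 members met that rule: Cish at 2.30-fold (2.05 to 2.59), Socs1 at 1.53-fold (1.38 to 1.71), Socs3 at 1.65-fold (1.22 to 2.24) and Socs2 as above. On the log2 scale the spread of Cish was 1.20 with all libraries and 0.33 without library 3, and that of Socs2 5.51 and 0.44. Without library 1 the spread of Socs1 went from 0.62 to 0.32 and that of Socs3 from 0.72 to 0.28. These are the lowest libraries of each gene, whose removal can only narrow its spread. Removing the highest library took Cish to 0.89 (without library 2) and Socs3 to 0.48 (without library 4). The plot of levels by library shows these values.

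**Figure D1:**
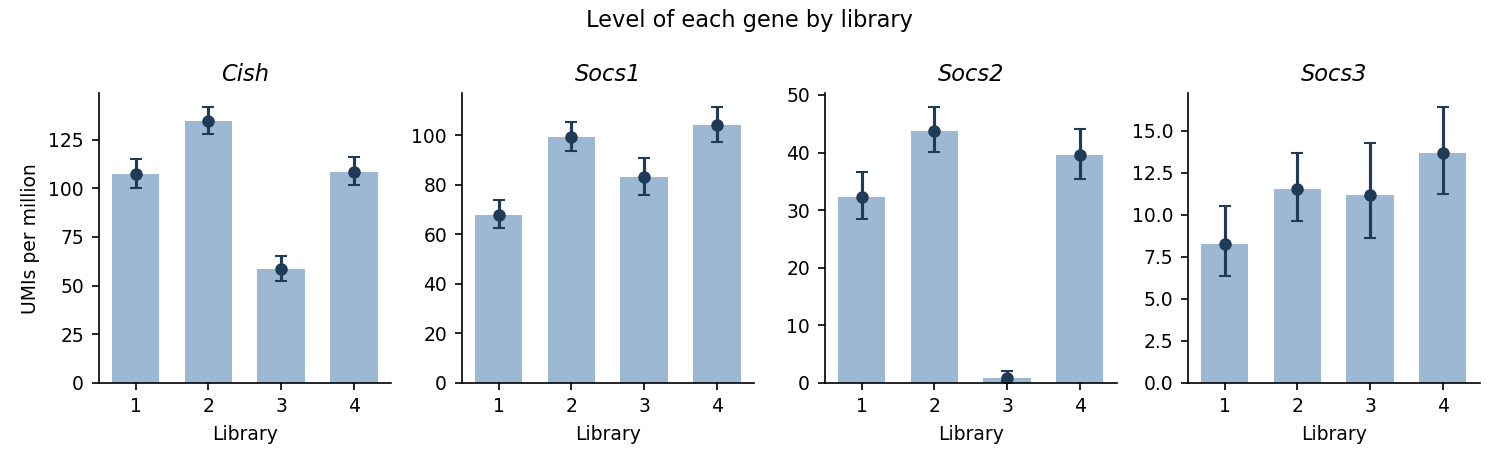
Level of each gene in CPM for libraries 1 to 4; bars and points give the level and error bars the exact 95% Poisson interval. Socs2 falls to 0.87 in library 3, where Cish is also lowest, while Socs1 and Socs3 are lowest in library 1.

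The next comparison set the 2437 cells with an Il2ra UMI (Il2ra-positive) against the 5836 without one (Il2ra-negative), within each library. A cell without an Il2ra UMI may still express the gene, and positive cells were deeper, at a median of 4411 against 2783 UMIs. Il2ra-positive cells made up 39.2%, 39.4%, 6.82% and 32.2% of libraries 1 to 4. The ratio of levels was combined over libraries by the Mantel-Haenszel method, and a gene was called when it had at least 200 UMIs, a ratio of at least 1.5-fold, a counting interval off no change and the same direction in all 4 libraries. By this rule 4.03% of 8070 genes were called higher and 3% lower in Il2ra-positive cells (7.03% either way), and 2 of the 4 members, Cish and Socs2, were called higher. With libraries not mapped to genotypes, the call compares cells of these libraries and carries no p-value.

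Socs2 stood out in Il2ra-positive cells. It measured 53.4 CPM in Il2ra-positive against 11.8 in Il2ra-negative cells of library 1, 71.2 against 16.9 in library 2, and 74.7 against 14.4 in library 4. In library 3 it had 2 UMIs in 139 positive cells and 3 UMIs in 1898 negative cells, a ratio of 6.75 with an interval of 1.33 to 34.2. The combined ratio was 4.58-fold (3.94 to 5.32), the highest of the 8070 genes tested. Of the Socs2-positive cells, 76.5% were Il2ra-positive. Thinned to equal depth and pooled over libraries, 10.8% of Il2ra-positive and 1.58% of Il2ra-negative cells held a Socs2 UMI. By library, the thinned shares were 9.34% and 2.03% in library 1, 12.1% and 2.33% in library 2, and 11.9% and 2.12% in library 4. In library 3 they were 1.55% and 0.13%, from 2 cells on each side.

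Socs2 was low in library 3 on both sides of the split. Its Il2ra-positive cells there measured 3.66 CPM (0.44 to 13.2) against 53.4 to 74.7 in those of the other libraries. The Il2ra-negative cells measured 0.58 CPM (0.12 to 1.70) against 11.8 to 16.9. Cish and Socs1 lay closer to the other libraries in the same cells. Cish in the Il2ra-positive cells of library 3 was 96.9 CPM (72.6 to 127) against 142 to 157 elsewhere, and Socs1 was 101 CPM (75.8 to 131) against 75.8 to 109.

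Cish was also higher in Il2ra-positive cells, by less. The levels were 142 against 73.6 CPM in library 1, 157 against 113 in library 2, 96.9 against 54.3 in library 3 and 143 against 84.2 in library 4. The intervals of positive and negative cells did not overlap in any library. The combined ratio was 1.61-fold, a log2 ratio of 0.69 (0.59 to 0.78), and the thinned shares, pooled over libraries, were 24.2% and 12.2%. With strata of library and cell cluster the ratio fell under the 1.5-fold needed for a call, at a log2 ratio of 0.54. Those clusters were made with Cish and Il2ra among their variable genes, so the strata are not independent of either gene.

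Socs1 and Socs3 were not called. Socs1 measured 75.8 against 60.3 CPM in library 1, 108 against 90.9 in library 2, 101 against 81.2 in library 3 and 109 against 101 in library 4, a combined 1.17-fold (1.08 to 1.26). Positive cells were higher in all 4 libraries, and the intervals of the ratio took in no change in libraries 3 and 4. Socs3 measured 9.24 against 7.26 CPM in library 1, 12.3 against 10.7 in library 2, 21.9 against 10.1 in library 3 and 15.5 against 12.3 in library 4. Its combined ratio was 1.28-fold (1.04 to 1.58). The interval of the Socs3 ratio took in no change in libraries 1, 2 and 4. Only in library 3 was it off no change, at 2.25-fold (1.22 to 4.17), with 12 UMIs behind the positive cells. Without library 3 the combined log2 ratio was 0.28. With strata of library and depth (5 bins of equal cell number) the log2 ratios were 0.48 for Socs1 and 0.61 for Socs3, against 0.22 and 0.35, and Socs3 was then called.

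**Figure D2:**
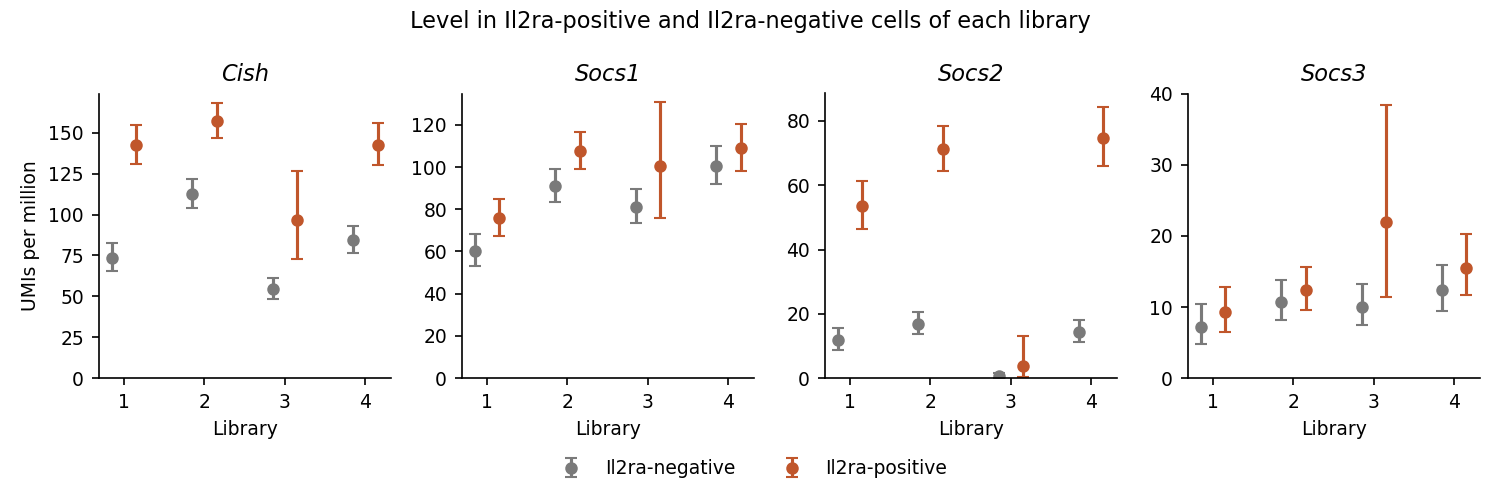
Level in CPM in Il2ra-negative (grey) and Il2ra-positive (orange) cells of libraries 1 to 4, with exact 95% Poisson intervals. The groups lie apart for Cish in all 4 libraries and for Socs2 in libraries 1, 2 and 4, and overlap for Socs3 in all 4.

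Pooled over libraries, the level of Socs2 was higher in cells with more Il2ra UMIs. It was 10.95 CPM in cells with 0, 42.6 with 1, 75.0 with 2 to 3 and 98.8 with 4 or more, which is 1233, 875 and 329 cells in the positive bins. Cish followed with 82.4, 133, 154 and 169 CPM. Socs1 did not keep to that order, at 84.6, 97.0, 107 and 85.1 CPM, nor did Socs3, at 10.2, 14.2, 11.5 and 11.1 CPM. Library 3 gave 1898 of the cells with 0 Il2ra UMIs and 106, 32 and 1 cells to the positive bins, so it weighed on the lowest bin and hardly on the upper ones. By library, Socs2 measured 11.8, 32.9, 48.6 and 97.2 CPM over the bins in library 1 and 16.9, 46.5, 82.1 and 108 in library 2. In library 4 it measured 14.4, 54.3, 101 and 84.8, so the order did not hold in its upper bin, which had 74 cells and 38 Socs2 UMIs. Cish in library 4 likewise measured 154 CPM with 2 to 3 and 149 with 4 or more. In library 3 Socs2 measured 0.58, 4.93, 0 and 0 CPM, from 3, 2, 0 and 0 UMIs. Median depth rose over the bins, from 2783 to 5762 UMIs. Thinned to equal depth and pooled, the shares of Socs2-positive cells were 1.58%, 6.94%, 14.5% and 14.7%, so the share hardly rose between the upper bins.

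Il2rb, the β chain that interleukin-2 and interleukin-15 share, separated Socs2 less than Il2ra did. Socs2 measured 7.24 CPM in cells with neither chain detected, 16.4 with Il2rb only, 50.9 with Il2ra only and 70.4 with both. Cish measured 69.9, 101, 126 and 156 CPM in the same order. Pooled, both genes were lowest without either transcript and highest with both. The same order held for Cish in all 4 libraries and for Socs2 in libraries 1, 2 and 4, while library 3 had 5 Socs2 UMIs over the classes. Socs1 ranged from 81.1 to 102 CPM and Socs3 from 10.1 to 13.0 CPM over these classes.

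**Figure D3:**
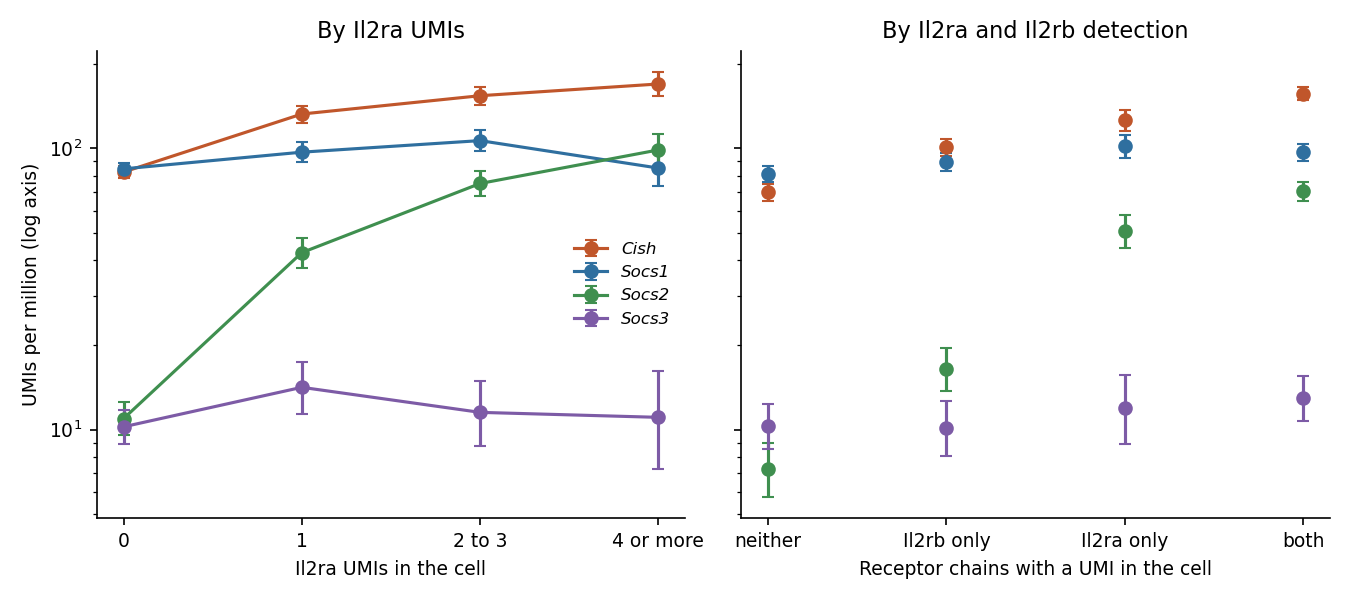
Level in CPM, on a log axis, by the number of Il2ra UMIs in the cell (left) and by detection of Il2ra and Il2rb (right), with exact 95% Poisson intervals. Socs2 goes from 10.95 to 98.8 over the Il2ra bins and from 7.24 to 70.4 over the receptor classes, while Socs3 stays between 10.1 and 14.2.

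Other genes were used to split the cells in the same way. Between cells with and without an Il2rb UMI, where 1.2% of 8070 genes were called higher, Socs2 was called at 2.01-fold (45.4 against 18.9 CPM) and Cish was not, at 1.41-fold. Between cells with and without Tnfrsf9, a receptor induced by T cell activation, 9.13% of genes were called higher and 5.63% lower, and Socs3 was among the latter. It measured 6.59 CPM in Tnfrsf9-positive and 15.7 in Tnfrsf9-negative cells, a log2 ratio of -1.27 (-1.61 to -0.94), with values of -0.78, -0.88, -1.62 and -1.95 in libraries 1 to 4. No member was called when cells were split by Il2rg, the γ chain, where 1.07% of genes were called higher and 0.211% lower. The same held for Il7r (2.03% and 0.756%) and Foxp3 (0.421% and 1.04%).

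Over all cells, each pair of the inhibitors was found in the same cells more often than their separate shares give. With library and depth bin held fixed, Cish and Socs2 were detected together in 376 cells against 266 given by independent detection, a ratio of 1.41 (1.27 to 1.56). Cish and Socs1 gave 881 against 652 cells, a ratio of 1.35 (1.26 to 1.44). Socs2 and Socs3 gave 57 against 35.5 cells, at 1.61 (1.22 to 2.08). Of the 6 pairs, Socs1 and Socs2 had the lowest ratio, 1.23 (1.08 to 1.39). Among Il2ra-positive cells alone, the ratio of Cish and Socs2 was 1.18 (1.05 to 1.32). There the intervals of 3 of the 6 pairs took in 1: Cish and Socs3 at 1.17 (0.94 to 1.44), Socs1 and Socs2 at 1.12 (0.97 to 1.28) and Socs2 and Socs3 at 1.32 (0.96 to 1.77). Among Il2ra-negative cells, Cish and Socs2 were at 1.62 (1.27 to 2.04) and Cish and Socs1 at 1.45 (1.31 to 1.61). Cish and Socs3 were at 1.54 (1.18 to 1.97), and Socs2 and Socs3 at 2.09 (1.12 to 3.58) from 13 cells. In the same cells the intervals of Socs1 with Socs2, at 1.18 (0.86 to 1.56), and with Socs3, at 1.22 (0.90 to 1.60), took in 1. Ratios were also taken with cells thinned to equal depth, library held fixed and no interval computed. Over all cells Cish was then at 1.58 with Socs1, 1.57 with Socs2 and 1.46 with Socs3. Socs2 and Socs3 were at 1.88, from 13 cells. Socs1 was at 1.18 with Socs2 (60 against 50.9 cells) and 1.27 with Socs3 (29 against 22.9). In thinned Il2ra-negative cells Socs1 and Socs2 fell to 0.70, from 8 cells. No member was detected in 54.1% of cells, 1 in 30.4%, 2 in 12.4%, 3 in 2.78% and all 4 in 23 cells.

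The cells were grouped by their expression to place the members among cell states. All 4 members and Il2ra had been among the variable genes of an initial clustering, so the levels given here come from a clustering made without these 5 genes, which gave 10 clusters. Clusters were named only where a marker list held, and the levels are a description with no test. Cluster 2 (2043 cells, led by Drc1, Grifin and Gpr83, the last a Treg surface receptor) held the highest Socs2, at 74.7 CPM, and the highest Cish, at 177 CPM. Its Socs1 was 137 and its Il2ra 254 CPM. Cluster 1 (2349 cells), led by A530021J07Rik and Tmie, held 5.30 CPM of Socs2, 49.99 of Cish and 28.6 of Il2ra.

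Library 3 gave 92 cells to cluster 2, and Socs2 was low in these cells too. The level there was 6.48 CPM, from 2 UMIs, against 72.6, 72.3 and 89.0 in the same cluster in libraries 1, 2 and 4. Cish in the same cells was 130 CPM against 170, 185 and 177, and Il2ra was 71.3 against 283, 253 and 255. The values in library 3, from 40 UMIs of Cish and 22 of Il2ra, were lower for all 3 genes, with the least difference for Cish.

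Pooled over libraries, Socs1 and Socs3 were high in another cluster. The interferon-response-like cluster 5 (618 cells, 10 of 10 markers, led by Ifit3b, Ifit3 and Rsad2) held 139 CPM of Socs1 and 24.5 of Socs3, with 5.83 of Socs2 and 66.4 of Cish. Socs3 was 16.8 CPM in cluster 2 and 3.80 in cluster 3 (1053 cells, led by Nrp2 with Tnfrsf9 among its top genes). Libraries 1 to 4 gave 48, 76, 368 and 126 cells to cluster 5, and their Socs1 levels in it were 80.1, 137, 154 and 127 CPM. Most of the cluster's cells were therefore from library 3. Socs1 in cluster 2 was 104, 143, 87.4 and 165 CPM in libraries 1 to 4. For Socs1, cluster 5 was thus above cluster 2 only in library 3, and its value in library 1 came from 13 UMIs.

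Over all libraries, the TCR and NF-kB-signalled-like cluster 8 (305 cells, led by Egr2 and Nr4a3) held 168 CPM of Cish and 262 of Il2ra. Its Socs1 was 60.0 and its Socs2 31.8 CPM. That Socs2 came from 5, 28, 0 and 2 UMIs in libraries 1 to 4, or 24.5, 63.4, 0 and 6.73 CPM. Socs1 in the cluster was 19.6, 67.9, 95.6 and 57.2 CPM in libraries 1 to 4. The double-positive thymocyte-like cluster 10 (79 cells, led by Dntt) held no Socs2 UMI, which at a floor of 3 UMIs allows 11.4 CPM (the exact 95% Poisson limit is 14.0), and 11.4 CPM of Cish from 3 UMIs. Its Socs1 was 156 CPM (112 to 212). In that cluster 16.5% of cells held an Il2ra UMI, at a median depth of 2069 UMIs, and 0% held Socs2. The thinned share of Socs2-positive cells was 10.7% in cluster 2 and 0.66% in cluster 1.

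Socs2 was higher in Il2ra-positive cells within several clusters as well. The CPM given here are pooled over libraries, while the log2 ratios hold library fixed. In cluster 2 it measured 116 CPM in positive and 30.4 in negative cells, a log2 ratio of 1.88 (1.59 to 2.17). In the proliferating-like cluster 6 it measured 28.8 and 6.85 CPM, a log2 ratio of 2.11 (1.22 to 3.00). In cluster 3 it measured 46.3 and 9.59 CPM, a log2 ratio of 1.67 (0.97 to 2.38). The interval took in no change in cluster 5, at 1.64 (-0.23 to 3.52), and cluster 10 held no Socs2 UMI. Cish in cluster 2 measured 202 and 149 CPM, a log2 ratio of 0.43 (0.28 to 0.59).

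**Figure D4:**
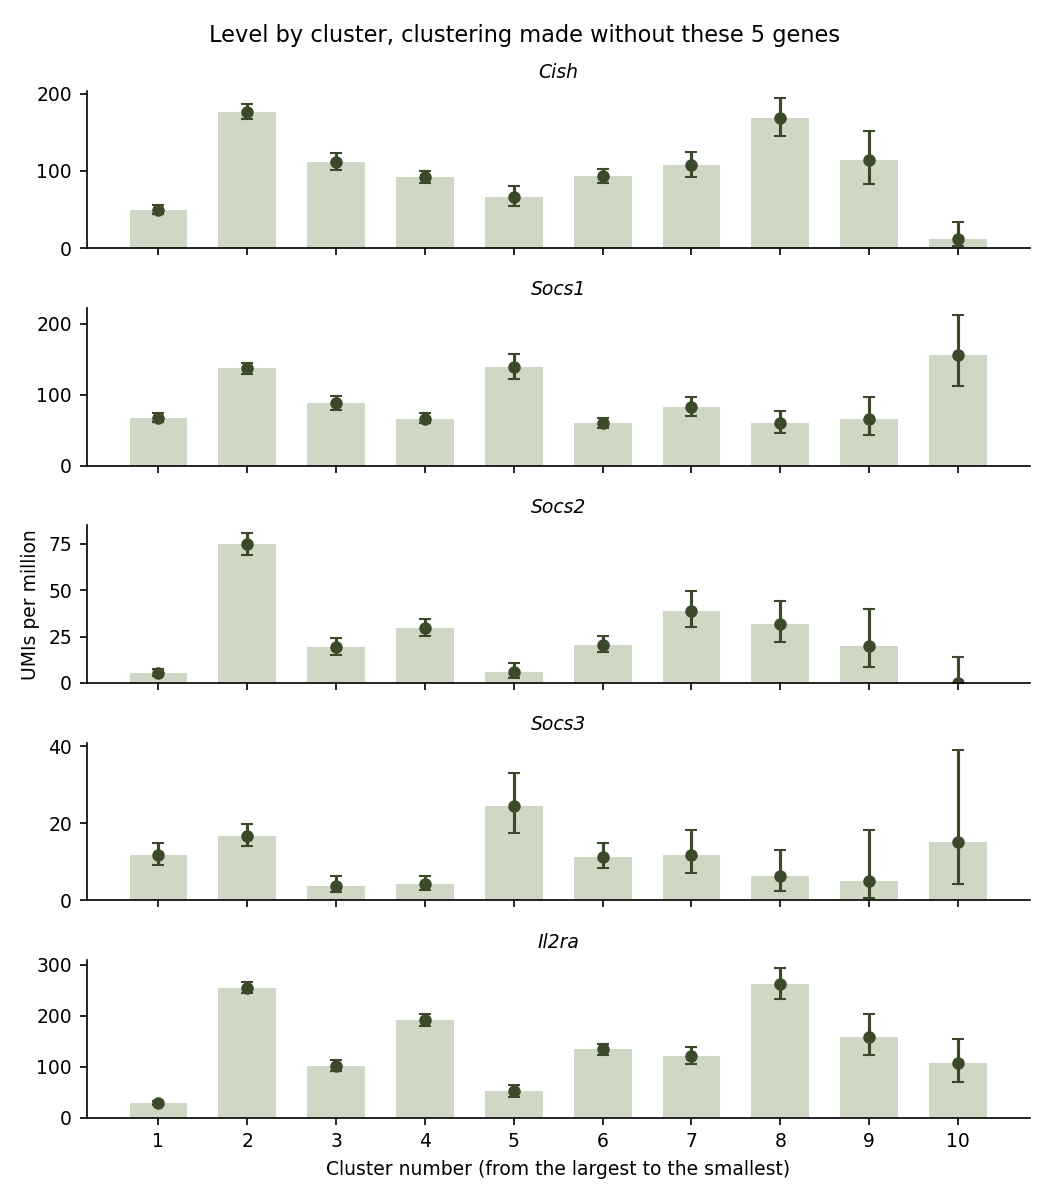
Level in CPM of the 4 members and Il2ra in the 10 clusters found without these 5 genes, with exact 95% Poisson intervals. Cluster 2 is highest for Socs2 (74.7) and Cish (177), cluster 5 is highest for Socs3 (24.5), and clusters 2, 5 and 10 are high for Socs1 (137, 139 and 156).

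The bases before the start sites of Socs1 and Socs3 are shown because these genes were high in the interferon-response-like cluster when libraries were pooled. RefSeq's promoter table (GRCm38.p6) matched Cish, Socs1 and Socs3. Its start sites of Cish and Socs3 lie inside the GENCODE spans given above, and the windows of both genes lie wholly inside those spans. Capitals mark pairs of GAAA parted by any 2 bases, the core bound by interferon regulatory factors, in the 250 bases before Socs1 (chr16:10785537-10785786, - strand). They also mark TTCNNNGAA, the STAT core, in the farthest 150 of the 250 bases before Socs3 (chr11:117969467-117969616, - strand). The bases nearest the start of Socs3 are not printed.
Socs1: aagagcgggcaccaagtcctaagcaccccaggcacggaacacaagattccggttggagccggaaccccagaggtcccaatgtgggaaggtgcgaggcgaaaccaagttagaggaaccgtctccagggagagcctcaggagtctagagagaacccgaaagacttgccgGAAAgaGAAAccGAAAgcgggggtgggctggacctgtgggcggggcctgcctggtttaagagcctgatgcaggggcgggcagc
Socs3: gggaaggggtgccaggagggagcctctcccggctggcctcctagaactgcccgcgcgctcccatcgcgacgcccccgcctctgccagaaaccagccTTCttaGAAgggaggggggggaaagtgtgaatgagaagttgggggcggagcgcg
The GAAA pair was searched on both strands and occurred 2 times before Socs1, the matches sharing 4 bases, at positions -83 and -77 from the start site. It was in 3.04% of 27025 promoters of equal length, and 0.2% held 2 or more. The GAAA pair was chosen after the Socs1 sequence had been read. TTCNNNGAA, which reads the same on both strands, was in 7.18% of the promoters and occurred at -154 before Socs3. Neither was found in the 250 bases before the RefSeq start of Cish (107296409 to 107296658). The bases before the GENCODE start of Cish were not searched, so this does not show whether they hold either motif. A match describes letters and shows no binding.

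The other SOCS genes behaved unlike Cish and Socs2. Of Socs4, Socs5, Socs6 and Socs7, known mainly from receptors for growth factors and insulin, 3 had at least 200 UMIs and none was called either way. Socs4 measured 12.7, 13.9, 14.5 and 13.1 CPM in libraries 1 to 4 and Socs6 11.8, 13.1, 14.3 and 10.4. Socs7 lay between 5.45 and 6.65 CPM and Socs5, at 113 UMIs, between 2.99 and 4.02. In Il2ra-positive against Il2ra-negative cells their log2 ratios were 0.18 for Socs4, -0.39 for Socs6 and -0.17 for Socs7.

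Among upstream genes, 1 of 13 receptor chains was called higher in Il2ra-positive cells and 1 lower. Il2rb was higher at 252 against 156 CPM, and Il6st, the chain shared by interleukin-6 family receptors that signal through STAT3, was lower at 29.2 against 52.3 CPM. None of 11 JAK and STAT genes was called, and none of 13 other inhibitors of the pathway. The median log2 ratio was -0.24, -0.07 and -0.14 in these lists and -0.03 over all genes.

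Of 15 genes known to be induced through STAT5, 4 were called higher and 1 lower, with a median log2 ratio of 0.24. Bcl2l1, a survival factor, was 96.5 against 31.1 CPM (3.06-fold), Myc, a growth regulator, 2.43-fold and the kinase gene Pim1 1.87-fold higher, with Il2rb as above. Dusp6, a phosphatase of the MAP kinase pathway, was lower at 19.7 against 30.1 CPM. Socs2 had a larger ratio than any of these.

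Of 8 genes known to be induced through STAT3, Batf, a transcription factor gene, was called higher at 1.81-fold. Of 15 TCR and NF-kB response genes, 7 were called higher and 1, Egr2, lower, with a median of 0.57. Irf4, an activation-induced transcription factor, was 3.91-fold, Cd83 2.89-fold, Nr4a3 1.87-fold and the costimulatory receptor Tnfrsf4 1.83-fold higher. Against these counts, 4.03% of all genes tested were called higher and 3% lower, and nothing particular to a list is read from them. The part of any of these genes in the Socs2 ratio was not tested. The summed proliferation markers were also higher in them, at 962 against 490 CPM.

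The genes most like each member were taken over 24 groups of cells, each an initial cluster in 1 library with at least 50 cells, by Pearson's r of log2(CPM + 10). The groups share libraries and depths, and the values are descriptions over 8071 genes. Cish was most like Lrrc32 (r 0.87), Il2rb (0.85), Ecm1 (0.85), Grifin (0.81) and Mbnl3 (0.81). Socs2 was most like Grifin (0.90), Mbnl3 (0.88), Rras2, Lsp1 and Glipr2 (each 0.87). Cish and Socs2 had an r of 0.77 with each other.

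Socs1 was most like Gata1 (0.79), Osm (0.76), Tob1 (0.76), Snx20 (0.71) and Htatip2 (0.70), and Socs3 like S1pr4 (0.81), Rhoh (0.78), Tnfaip8l2, AI467606 and Arl4c (each 0.76). Osm encodes oncostatin M, a cytokine of the interleukin-6 family, and S1pr4 a sphingosine-1-phosphate receptor. Socs1 and Socs3 had an r of 0.66 with each other, and Socs3 and Cish 0.10. Spearman's rho for the leading genes was 0.85 for Cish with Lrrc32, 0.80 for Socs2 with Grifin, 0.69 for Socs1 with Gata1 and 0.80 for Socs3 with S1pr4.

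The members had shaped those groups, and the lists changed over 30 groups from the clustering made without them. Cish was then most like Ecm1 (0.84), Ctsw (0.81), Lrrc32 (0.80), Mbnl3 (0.80) and Capg (0.77), and Socs2 like Glipr2 (0.84), Ecm1 (0.83), Mbnl3 (0.82), Capg (0.82) and Rras2 (0.81). Grifin left both lists, while Mbnl3 stayed on both. Socs1 was most like Osm (0.69), Parp12 (0.69), 1600014C10Rik (0.65), Htatip2 (0.65) and Gm26771 (0.64), without Gata1. Socs3 was most like Cnp (0.82), Tspo (0.80), Tnfaip8l2 (0.79), Rhoh (0.78) and Ifngr1, a chain of the interferon-γ receptor (0.78), without S1pr4. Cish and Socs2 had an r of 0.74, Socs1 and Socs3 of 0.53, and Socs1 and Socs2 of 0.28 against 0.50 over the initial groups.

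The authors' normalized table, which holds 7231 of the cells, gave higher mean values in Il2ra-positive cells for all 4 members. The mean log2 value of Cish was 0.58 in Il2ra-positive and 0.27 in Il2ra-negative cells, and that of Socs2 was 0.27 and 0.03. Socs1 measured 0.42 and 0.30, and Socs3 0.06 and 0.04. The difference for Socs2 was 0.20, 0.25, 0.02 and 0.27 in libraries 1 to 4.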

How the data were processed

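Libraries were made with the Chromium Single Cell 3' kit v2, per the labels' protocols; the mouse build mm10, Cell Ranger 2.0.2, R 3.4.1 and CASAVA 2.20 are named in the submitters' processing notes, with no roles. The deposited count table holds raw UMI counts per gene and cell, and a second deposited table holds log2 values of 9571 genes in 7231 cells, which the authors divided by a factor per cell, as its values show (range 0.168 to 5.68). Ensembl identifiers were named from GENCODE M21.

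From the counts, levels (CPM) with exact Poisson intervals and shares with Clopper-Pearson intervals were computed, and ratios of Il2ra-positive to Il2ra-negative cells with a prior of 0.5 UMI on a log2 scale. Clusters came from scanpy 1.11.5 (2000 variable genes, 30 components, 15 neighbours, Leiden resolution 0.6); no doublets were removed. The script for ratios was tested on simulated data. Depth per library was 5717732 to 11274713 UMIs, which limits Socs2 in library 3 and Socs3. The samples could not be tied to libraries, so genotypes were not compared. Alternatives covered scaling, thinning, strata, cell filters, the Il2ra threshold and leaving out each library; leaving out cells of shared barcodes was chosen after seeing the data.

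The members and gene lists were chosen with earlier results of these data known. Named genes were the members, the other SOCS genes, genes that split cells, up to 4 called genes per list with the largest ratios, and the 5 genes most like each member. The result of 1 gene list is not reported here.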

Additional observations from a re-analysis of the deposited data

How the results depend on the processing

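No paired analysis was possible because each group has 1 sample and libraries are not tied to samples. Of 145 alternative values, 118 stayed inside the counting interval of the reported value (or within 1.5 times a reported count) and 27 moved. Spreads of the highest over the lowest and counts of called genes have no sign to reverse. A reversal was therefore open to the Il2ra ratios only, with 19 alternatives per member, and none changed sign. The lowest log2 ratios were 0.54 for Cish, 0.20 for Socs1, 1.92 for Socs2 and 0.19 for Socs3.

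For Il2ra-positive against Il2ra-negative cells, the log2 ratio of Cish (0.69) was 0.92 with cells thinned and status taken before thinning, 0.84 with status after thinning, 0.54 with library and cluster strata, 0.83 with no stratum, 0.87 with cells counted alike and 0.81 without the top 5% of cells by UMIs. Socs1 (0.22) was 0.38 with status after thinning, 0.48 with depth bins, 0.37 with cells counted alike and 0.36 without the top 5%. Socs2 (2.19) was 2.44 and 1.92 with status before and after thinning, 1.95 with cluster strata, 2.55 with no stratum, 2.49 with cells counted alike and 2.53 at 2 or more Il2ra UMIs. Socs3 (0.35) was 0.75 with status after thinning. Leaving out each library gave 0.60 to 0.85 for Cish.

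The 567 called genes became 315 with thinned cells, 189 with depth bins and 139 with cluster strata. Socs2 was called in each, and Cish in all but the last. Cluster strata, here and above, were the initial clusters, which the members and Il2ra had helped to shape. Leaving out a library, the log2 spread over libraries was 0.33 to 1.20 for Cish, 0.32 to 0.62 for Socs1, 0.44 to 5.51 for Socs2 and 0.28 to 0.72 for Socs3. The log2 spread of Socs2 over clusters of at least 400 cells was 4.66 in the initial clustering and 3.80 in the one without the members. The cause of these shifts was not tested. Depth limits Socs2 in library 3, with 5 UMIs, and Socs3, with 373 UMIs in all.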
